A study of Drosophila melanogaster with 38 samples.

Results

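The genes of the mitochondrial ribosome were examined for MSL2 peaks at their promoters. These are the protein-coding genes of the BDGP6 annotation whose symbol starts with mRpL or mRpS, which name proteins of the large and the small subunit. There were 73 of them among 13945 protein-coding genes on X and the autosomes, 47 named mRpL and 26 named mRpS. Of the 73 genes, 11 lie on X and 62 on autosomes. The rule for membership used only symbols, while the group itself was proposed with results of these data known.

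The series holds chromatin immunoprecipitation followed by sequencing (ChIP-seq) from the dissected front part of Drosophila melanogaster larvae of the third instar, with 19 female and 19 male libraries and 1 library for each combination of sex, genotype and target. MSL2, the male-specific subunit of the dosage compensation complex, was precipitated through its tag in 2 libraries, 1 of each sex, from msl-2227/msl-2km larvae that also carried the transgenes tub-Gal4 and UAS-msl-2::3Flag. These larvae have msl-2 mutant alleles and make MSL2 from the transgene under the broadly active tub-Gal4 driver, not from its own promoter. The control for the FLAG antibody came from untagged larvae whose genotype is recorded as msl-2227/km with the CyO-GFP balancer, also 1 library of each sex. Which of these a single larva carried together was not resolved here, so the control is not taken to share the mutant genotype of the tagged larvae. What is analysed here are 3 MSL2 peak lists deposited for the series as a whole, high-affinity sites (HAS), other X peaks and an autosomal list, which are tied to no single library. Together they hold 815 distinct peaks on X and 1693 on autosomes. The sex of the larvae behind these lists and their sequencing depth were not given in the sources used, and the sexes are not compared. The lists give no usable peak height, and a peak is therefore only present or not.

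Mitochondrial ribosomes translate the few proteins that the mitochondrial genome encodes, which are core subunits of the respiratory chain and the ATP synthase. Their proteins are all encoded in the nucleus, made in the cytosol and imported. Some have counterparts in bacterial ribosomes and keep their numbers, while others were added in mitochondria. Such housekeeping genes are often short and often share a promoter region with a neighbour transcribed in the opposite direction. On the male X the MSL complex acetylates histone H4 at lysine 16 and raises transcription of active genes.

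A mitochondrial ribosomal protein gene was scored when a peak of any list came within 1 kb, up- or downstream, of an annotated transcription start site (TSS). Of the 73 genes, 17 carried such a peak (23.3%, 95% Wilson interval 15.1 to 34.2). Among all other protein-coding genes 2248 of 13872 did, a background of 16.2%. On X the count was 7 of 11 (63.6%, 35.4 to 84.8) beside a background of 30.8%, and on autosomes it was 10 of 62 (16.1%, 9.0 to 27.2) beside 13.5%. The autosomal share is thus near its background, while the X share is higher than its own but rests on 11 genes. The shares are given as a description with no test, and the intervals cover counting error only.

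Genes named mRpL and genes named mRpS carried peaks in similar shares. Of the 47 mRpL genes 11 had a TSS peak (23.4%, 13.6 to 37.2), and of the 26 mRpS genes 6 did (23.1%, 11 to 42.1). On X all 3 mRpS genes and 4 of 8 mRpL genes had one. Genes whose number lies in the bacterial set (L numbers up to 36, S numbers up to 21) had a peak in 10 of 42 cases (23.8%), and the genes numbered past it in 7 of 31 (22.6%). The split differed in direction between chromosomes. On X it was 3 of 7 (42.9%, 15.8 to 75) against 4 of 4 (51.0 to 100), and on autosomes 7 of 35 (20.0%, 10.0 to 35.9) against 3 of 27 (11.1%, 3.85 to 28.1), beside the backgrounds of 30.8% and 13.5%. The intervals overlapped on both. By arm, peaks stood at 1 of 12 genes on 2L (8.33%, others 12.4%), 2 of 12 on 2R (16.7%, others 14.8%), 3 of 17 on 3L (17.6%, others 11.7%) and 4 of 21 on 3R (19.0%, others 14.9%). Counts of this size do not separate the arms.

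**Figure D1:**
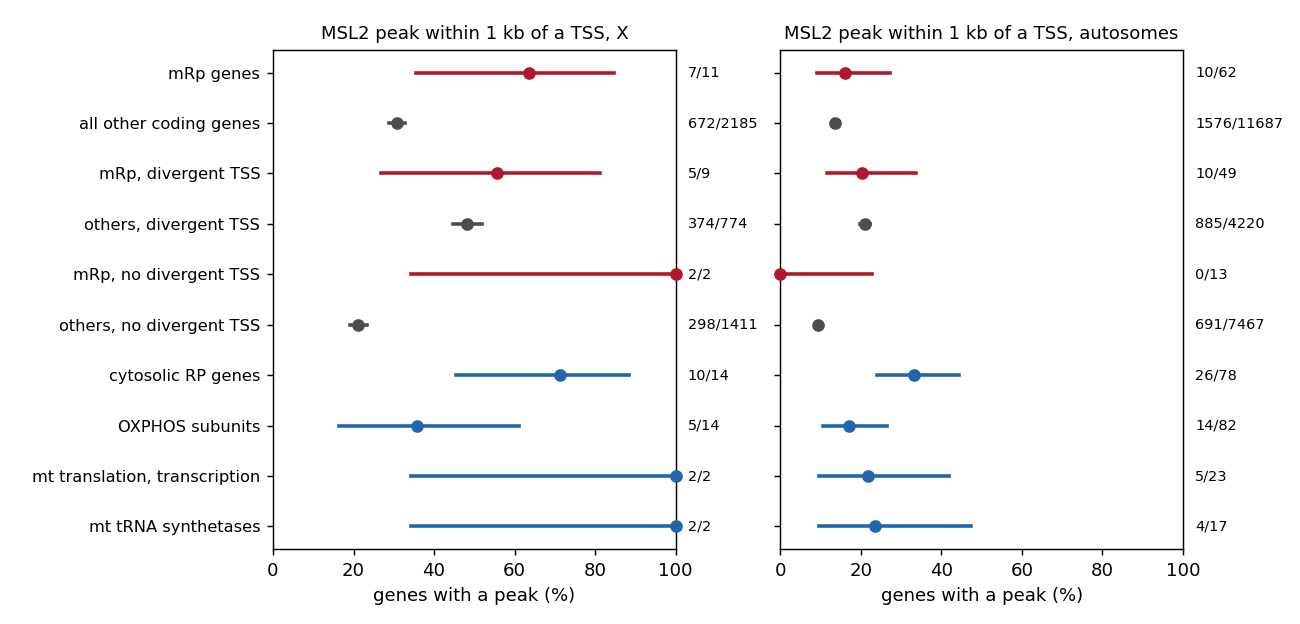
Share of genes with an MSL2 peak within 1 kb of a TSS (percent, points) with 95% Wilson intervals (lines), on X (left) and autosomes (right), for mRp genes (red), other protein-coding genes (grey) and related gene lists (blue), with counts at the right of each panel. The mRp genes reach 63.6% on X and 16.1% on autosomes, and on autosomes all 10 genes with a peak are in the divergent class.

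At X genes of the group that carried a peak, it often stood over the start site itself. Of these 7 genes, 5 had their TSS inside it (45.5% of the 11, against 19.3% of other X genes), and a sixth missed it by 12 bp. These 5 all have a start site of another gene on the opposite strand within 1 kb upstream. Among X genes with such a neighbour, a peak covered the TSS of 5 of 9 members (55.6%) and of 27.3% of other genes. All peaks nearest to these 7 genes came from the list of other X peaks. A peak overlapped the body of 11 of the 73 genes (15.1%, others 13.9%). The genes of the group are short, with a median length of 909 bp against 2180 bp, so the body of a gene of median length lies within 1 kb of the TSS.

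At 3 of the X genes a peak of under 300 bp was centred close to the start site. At mRpL38, a large subunit gene (X, 14226289 to 14227949, plus strand), the peak of 183 bp reached from -84 to 98 bp relative to the TSS (negative is upstream), with its midpoint 7 bp downstream. At mRpS30 (X, 15786047 to 15788288, plus strand), named for the small subunit although its mammalian counterpart sits in the large one, a peak of 168 bp had its midpoint 11 bp downstream. At mRpS25, a small subunit gene (X, 14582136 to 14582982, minus strand), the peak of 276 bp had its midpoint 39 bp downstream. In these 3 cases the midpoint lay in the 5′ untranslated region of the mitochondrial ribosomal protein gene, and its TSS was the closest of any protein-coding gene. The divergent neighbours CG11674, Paf-AHalpha and nmdyn-D6 start 410, 464 and 695 bp upstream, outside the peaks.

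The whole peaks are printed because they mark which bases around these start sites were called. Each was read from the RefSeq copy of the Release 6 genome and is written on the strand of its gene (dm6), and capitals mark matches to 1 of the 6 words searched (GAGAGAGA, CACACACA, TATCGATA, GGTCACAC, TATAAA and AAAAAAAA, both strands). The TSS is base 85 in mRpL38, base 73 in mRpS30 and base 100 in mRpS25.
mRpL38, X:14226205-14226387, plus strand: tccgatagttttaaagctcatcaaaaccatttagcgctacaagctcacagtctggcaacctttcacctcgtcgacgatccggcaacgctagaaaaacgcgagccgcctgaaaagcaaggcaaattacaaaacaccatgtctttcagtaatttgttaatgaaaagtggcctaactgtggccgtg
mRpS30, X:15785975-15786142, plus strand: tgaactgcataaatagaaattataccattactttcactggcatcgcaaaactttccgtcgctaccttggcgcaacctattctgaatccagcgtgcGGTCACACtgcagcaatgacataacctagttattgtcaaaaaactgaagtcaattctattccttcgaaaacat
mRpS25, X:14582806-14583081, minus strand: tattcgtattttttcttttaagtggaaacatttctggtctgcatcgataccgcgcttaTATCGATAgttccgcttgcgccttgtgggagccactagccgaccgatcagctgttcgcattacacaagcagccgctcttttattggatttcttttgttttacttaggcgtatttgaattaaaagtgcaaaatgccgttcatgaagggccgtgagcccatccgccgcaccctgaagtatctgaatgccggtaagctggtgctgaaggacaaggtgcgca
The mRpS25 peak holds TATCGATA, the DNA replication-related element (DRE) of housekeeping promoters, from base 59, and the mRpS30 peak holds GGTCACAC, the core of the core promoter element known as Motif 1, from base 96. The mRpL38 peak holds none of the 6 words.

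The other peaks over X start sites were wider and covered both genes of a divergent pair. At mRpL22, whose bacterial counterpart lines the exit tunnel of the ribosome (X, 16783933 to 16785092, plus strand), a peak of 811 bp spanned from -619 to 191 bp relative to the TSS. It also covered the TSS of if, an integrin alpha subunit gene, 499 bp away on the opposite strand. At mRpS14 (X, 19479382 to 19480238, minus strand) the peak of 363 bp covered the TSS and that of Naa15-16, an N-terminal acetyltransferase subunit gene, which starts 21 bp upstream. Its midpoint was closer to Naa15-16, at 60 bp, than to mRpS14, at -81 bp. These peaks cannot be assigned to 1 gene of the pair from position.

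The gene mRpL14, whose bacterial counterpart lies at the subunit interface (X, 2343997 to 2344649, minus strand), was the only member with a pair of peaks within 1 kb. The first, of 239 bp, began 12 bp downstream of the TSS and had its midpoint in a coding exon of mRpL14, 131 bp into the gene. The second was a HAS of 1243 bp (X, 2342485 to 2343727) whose near edge lay 922 bp from the TSS, beyond the end of the gene, with its midpoint in a coding exon of Raf. It was the only HAS within 1 kb of a TSS of the group, or 1 of 11 X genes (9.09%) against 78 of 2185 other X genes (3.57%). No divergent TSS lies within 1 kb upstream of mRpL14. Neither of its peaks was within 1 kb of a TSS of another protein-coding gene.
The first peak, X:2344399-2344637, minus strand, is shown because it starts inside the transcribed region: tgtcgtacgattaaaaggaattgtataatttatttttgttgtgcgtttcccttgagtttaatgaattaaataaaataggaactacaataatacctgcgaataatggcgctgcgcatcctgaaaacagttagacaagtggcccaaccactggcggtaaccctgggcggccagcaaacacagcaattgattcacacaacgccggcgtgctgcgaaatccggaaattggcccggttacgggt

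At mRpL49 (X, 12907105 to 12907942, plus strand) the peak of 376 bp lay far upstream, with its near edge 994 bp from the TSS, and its midpoint was 95 bp from the TSS of CG4404. This was the member just inside the 1 kb limit. The member just outside it was mRpL27 on 2L, with a peak 1181 bp away. That peak stood 174 bp past the 3′ end of mRpL27 and was centred 37 bp from the TSS of RpL27A, a gene of the cytosolic ribosome.

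The 4 X members without a TSS peak were mRpL33, mRpL16, mRpL3 and mRpL30, all large subunit genes with bacterial counterparts. Their nearest peaks were 1674, 3091, 14915 and 36543 bp away. The one near mRpL33 lay in an intron of norpA, the eye phospholipase C gene, and the one near mRpL16 was a HAS in an intron of arm, the beta-catenin gene. For mRpL3 the closest peak was centred 7 bp from the TSS of CG8944, and for mRpL30 it was a HAS in an intron of Pp2C1. The promoter of mRpL3 is shown for contrast with mRpS25, since it holds the same DRE without a peak. It runs from 250 bp before the TSS (base 251) over 300 bp, and the DRE in capitals spans the TSS from base 248.
mRpL3, X:15760998-15761297, plus strand: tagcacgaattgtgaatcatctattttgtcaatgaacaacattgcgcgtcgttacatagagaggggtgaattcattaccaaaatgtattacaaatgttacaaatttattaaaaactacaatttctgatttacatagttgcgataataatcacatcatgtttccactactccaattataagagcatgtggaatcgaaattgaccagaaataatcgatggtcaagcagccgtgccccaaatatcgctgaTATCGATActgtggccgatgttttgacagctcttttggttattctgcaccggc

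Over the 11 X members the distance from TSS to the nearest peak had a median of 12 bp (95% binomial interval of the median 0 to 14915), against 5158 bp for other X genes. The nearest HAS was a median of 14274 bp away, against 35236 bp, with a range over the members from 922 bp at mRpL14 to 245506 bp at mRpS25. The member with the most distant HAS thus had its own peak over the TSS. Among X genes with a divergent TSS, the median distance to the nearest peak was 0 bp for 9 members and 1295.5 bp for 774 others.

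**Figure D2:**
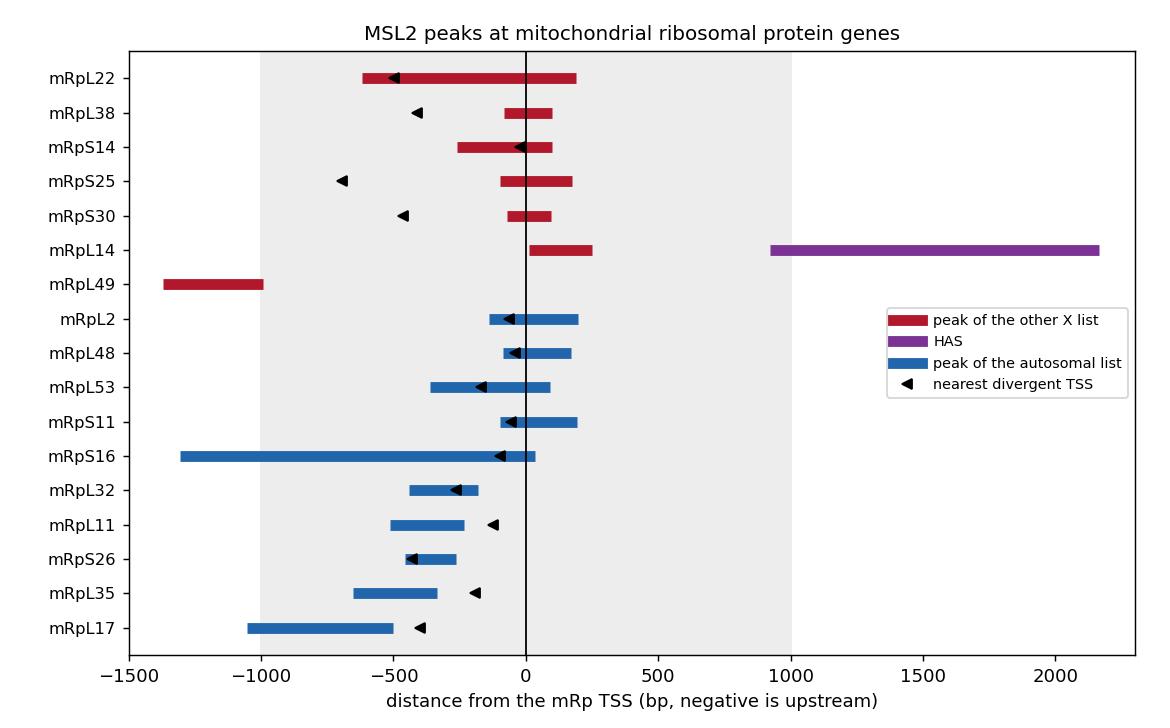
MSL2 peaks (bars) of the 17 mRp genes with a peak within 1 kb of the TSS (grey band), by distance from the TSS in bp, with negative values upstream, and the nearest divergent TSS within 1 kb (triangles). X genes stand above autosomal ones. Bars cross the TSS at 5 X and 5 autosomal genes, and the remaining 5 autosomal peaks lie wholly upstream, 180 to 501 bp away.

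On autosomes, 3 members were the closest gene to their peak. At mRpL48, a large subunit gene (2L, 1710462 to 1711465, plus strand), the peak of 260 bp had its midpoint 41 bp downstream of the TSS, and CG17660 starts 41 bp upstream on the other strand. At mRpL2 (3L, 11120847 to 11122041, plus strand), whose bacterial counterpart borders the peptidyl transferase centre, a peak of 335 bp had its midpoint 28 bp downstream. Its divergent neighbour, 64 bp upstream, is FoxK, a forkhead transcription factor gene. At mRpS11, a small subunit gene (3R, 17072732 to 17073795, plus strand), a peak of 293 bp had its midpoint 48 bp downstream, and Ns1, a nucleostemin gene, starts 57 bp upstream. In all 3 the midpoint lay in the 5′ untranslated region of the mitochondrial ribosomal protein gene, and the peak also covered the TSS of the neighbour.

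Peaks of at most 300 bp among these are shown whole, with the same capitals, as the autosomal counterparts of the X sequences. The TSS is base 89 in mRpL48 and base 99 in mRpS11.
mRpL48, 2L:1710374-1710633, plus strand: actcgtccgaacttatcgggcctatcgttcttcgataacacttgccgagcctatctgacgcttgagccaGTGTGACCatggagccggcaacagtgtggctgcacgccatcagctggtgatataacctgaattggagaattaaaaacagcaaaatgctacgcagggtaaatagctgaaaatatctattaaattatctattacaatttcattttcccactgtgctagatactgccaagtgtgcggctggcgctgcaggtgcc
mRpS11, 3R:17072634-17072926, plus strand: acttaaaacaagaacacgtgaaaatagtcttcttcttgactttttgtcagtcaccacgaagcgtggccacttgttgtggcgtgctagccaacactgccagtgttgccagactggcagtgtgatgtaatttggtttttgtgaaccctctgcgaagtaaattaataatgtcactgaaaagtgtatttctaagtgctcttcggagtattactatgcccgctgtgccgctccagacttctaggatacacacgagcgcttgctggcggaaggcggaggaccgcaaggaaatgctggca
The mRpL48 peak holds GGTCACAC on the opposite strand, from base 70, between the start sites of the pair, and the mRpS11 peak holds none of the words.

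At the other 7 autosomal members the peak was centred nearer to the TSS of a neighbour. For 5 of them it did not touch the TSS of the member at all. The peak of 264 bp at mRpL32 (3R, 31252872 to 31253686) lay 180 bp upstream and was centred 48 bp from the TSS of qless, which encodes an enzyme of ubiquinone side chain synthesis. The peak of 281 bp at mRpL11 (3R, 14511838 to 14512691), whose bacterial counterpart forms the base of the stalk, lay 235 bp upstream and was centred 3 bp from a TSS of HtrA2, a mitochondrial protease gene. At mRpL35 (3R, 22023527 to 22024341) the peak of 318 bp lay 336 bp upstream and was centred 42 bp from a TSS of Mitofilin, a gene of cristae organisation. These 3 neighbours, like the members, encode mitochondrial proteins, but how often the neighbours of members do so in general was not counted.

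The remaining autosomal peaks stood at neighbours of other kinds. At mRpS26 (3L, 18106579 to 18107499) the peak of 193 bp was 265 bp upstream and was centred 69 bp from the TSS of CG13698. At mRpL17 (3L, 264779 to 265932) the peak of 553 bp was 501 bp upstream and lay in an intron of Tudor-SN, a nuclease gene of the RNA silencing machinery. At mRpL53 (2R, 13954195 to 13955664) the peak of 452 bp covered the TSS, but its midpoint was 34 bp from a TSS of AGO1, the Argonaute gene of the microRNA pathway. CG33155 has a TSS at the same position as mRpL53, so their start sites cannot be told apart. At mRpS16 (2R, 14172986 to 14173596) a peak of 1343 bp, the widest of the group, began inside the gene and had its midpoint at -635 bp. It lay mostly over cg, a zinc finger transcription factor gene that starts 97 bp upstream of mRpS16.

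Counting each peak only for the protein-coding gene with the closest TSS lowered the counts, most of all on autosomes. Under that rule 8 of the 73 members kept a peak (11%, others 11.6%). On autosomes 3 of 62 did (4.84%, others 9.58%), and on X 5 of 11 (45.5%, others 22.6%). Of the autosomal members with a TSS peak 3 of 10 were the closest gene (30.0%), against 1120 of 1576 other autosomal genes (71.1%). On X these shares were 5 of 7 (71.4%) and 494 of 672 (73.5%). The shares were not matched for divergent neighbours. All 10 autosomal members with a peak had a divergent TSS within 1 kb upstream, while 691 of the 1576 other autosomal genes had none.

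Divergent neighbours were common in the group. A protein-coding TSS on the other strand lay within 1 kb upstream for 58 of the 73 members (79.5%), against 4994 of 13872 other genes (36%). With a divergent TSS, 15 of 58 members (25.9%, 16.3 to 38.4) and 1259 of 4994 other genes (25.2%, 24.0 to 26.4) had a peak. Without one, the shares were 2 of 15 (13.3%, 3.74 to 37.9) and 989 of 8878 (11.1%, 10.5 to 11.8). On autosomes the divergent members were at 20.4% and the other divergent genes at 21%. All 10 autosomal members with a peak belonged here, and 0 of the 13 without a divergent TSS had one, which allows a Wilson upper limit of 22.8%. On X the divergent members were at 5 of 9 (55.6%, 26.7 to 81.1) and the other divergent genes at 48.3%. Within the divergent class the group therefore stood close to its background on autosomes and in the whole set, and on X the background lay inside the interval of the members.

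Few members had alternative start sites. Of the 73 members 67 had a single TSS position (91.8%), against 73.4% of other genes, and the most was 3. More positions give a gene more windows. Among genes with a single position, 16 of 67 members (23.9%, 15.3 to 35.3) and 1153 of 10179 others (11.3%, 10.7 to 12.0) had a TSS peak. On autosomes the counts were 10 of 57 (17.5%, 9.82 to 29.4) and 801 of 8677 (9.23%, 8.64 to 9.86). These sets were not matched for divergent neighbours, which 79.5% of all members and 36% of all other genes have.

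The 18 peaks in reach of the 17 genes had a median width of 305.5 bp, with a range from 168 to 1343 bp. The other 1782 peaks within 1 kb of a protein-coding TSS had a median of 243.0 bp and a range from 150 to 4763 bp. Of these 18 peaks 16 were within 1 kb of start sites of at least 2 genes (88.9%, others 36.1%). The 18 were selected for reaching a member, which favours wide peaks and peaks near several genes. The widths and shares are therefore not compared like for like. When a peak covered the TSS of a member, its midpoint lay between -635 and 48 bp from that TSS, with a median of 9 bp. It was upstream in 4 and downstream in 6 of these 10 genes.

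Promoters of the group were searched for the 6 words from 250 bp before to 50 bp after the most upstream TSS, with no mismatch. GAGAGAGA, a stretch of the GA repeat typical of MSL recognition elements, occurred in 0 of 73 promoters. That allows a share of up to 4.11% by the limit of 3 counts and 5.0% by the Wilson interval. The word occurred in 3.05% of other promoters, 4.14% of those of other genes with a TSS peak and 2.12% of those with a divergent TSS. TATCGATA occurred in 15 of 73 (20.5%, 12.9 to 31.2), against 9.30% of other promoters and 15.7% of other promoters with a divergent TSS. It was present at 4 of the 17 members with a peak (23.5%) and at 11 of the 56 without one (19.6%). The word thus stood at similar shares with and without a peak. GGTCACAC was found in 4 of 17 (23.5%, 9.56 to 47.3) and 4 of 56 (7.14%, 2.81 to 17.0), and in 7.68% of other promoters, 12.5% of those of other genes with a TSS peak and 13.2% of those with a divergent TSS. CACACACA was found in 3 of 17 (17.6%, 6.19 to 41.0), namely mRpL48, mRpS14 and mRpS16, and in 1 of 56 (1.79%, 0.316 to 9.45). It occurred in 4.02% of other promoters, 6.32% of those of other genes with a TSS peak and 2.62% of those with a divergent TSS. For both words the share among other genes with a TSS peak lay inside the interval of the members with a peak. TATAAA occurred in 46.6% of the members and 45.8% of other promoters, and AAAAAAAA in 15.1% and 16%. The last bases of GGTCACAC are the first of CACACACA, so both words can share letters. The median GC content of the promoters was 34.7%, against 38.0%.

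The same words were counted in 300 bp windows centred on the peaks. GAGAGAGA was found in 1 of the 18 windows (5.56%, 0.988 to 25.8), that of mRpS16, and in 7.74% of the other 1782. CACACACA was found at mRpS14 alone (5.56%, others 20.7%). The promoters of mRpL48 and mRpS16 hold it, but the windows of their peaks do not. TATCGATA occurred at mRpL22 and mRpS25 (11.1%, others 4.66%) and GGTCACAC at mRpL48 and mRpS30 (11.1%, others 8.36%). With 18 windows these shares cannot be separated from those of the other peaks.

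Most members had no MSL2 peak nearby. Over the 62 autosomal members the median distance from TSS to the nearest peak was 11983 bp (95% binomial interval 5899 to 16735), against 17889 bp for other autosomal genes. Within 5 kb a peak was found for 21 of them (33.9%, others 24.6%), and for 9 of 11 on X (81.8%, others 49.4%). Among autosomal genes with a divergent TSS, the median distance was 10813 bp for 49 members and 10619 bp for 4220 others. The shares within 5 kb were not matched in this way. After mRpL27, the closest autosomal members without a TSS peak were mRpL55, mRpL9 and mRpS23, at 1809, 2398 and 2599 bp. The peak near mRpL55 was centred 91 bp from the TSS of CG6040 and that near mRpL9 53 bp from the TSS of Cyfip. At the other end stood mRpS5 on 3L, at 596661 bp.

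**Figure D3:**
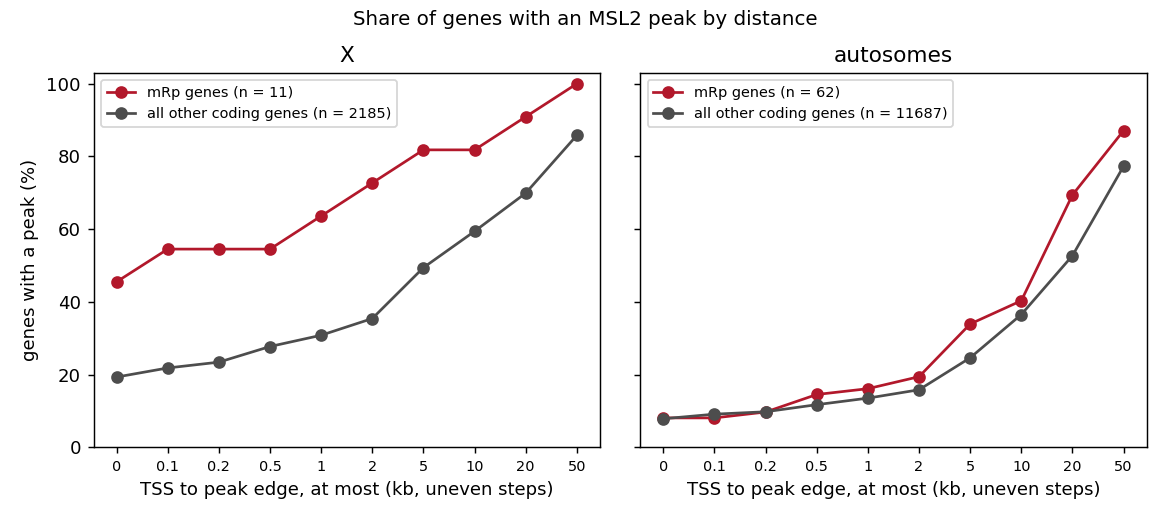
Share of genes (percent) with an MSL2 peak whose edge lies within a given distance of a TSS (kb, unevenly spaced steps, 0 meaning that the peak covers the TSS), on X (left) and autosomes (right), for mRp genes (red) and all other protein-coding genes (grey). On X the group runs from 45.5% at 0 to 81.8% at 5 kb, above 19.3% and 49.4%, while on autosomes both curves start near 8%, at 8.06% and 7.83%.

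Other genes of mitochondrial gene expression carried peaks in shares whose intervals overlapped that of the group (23.3%, 15.1 to 34.2). The background over all genes outside the group was 16.2%. In a list for mitochondrial translation and transcription, which also holds the ribosomal gene tko, 7 of 25 had a TSS peak (28.0%, 14.3 to 47.6). Among them were PolrMT, the mitochondrial RNA polymerase gene, GatB, a subunit of the amidotransferase that completes glutaminyl-tRNA, and SLIRP1, an RNA-binding protein gene. Each of these had a peak over the TSS. In a list of mitochondrial tRNA synthetases, which includes enzymes shared with the cytosol, 6 of 19 had a TSS peak (31.6%, 15.4 to 54). AlaRS-m, ArgRS-m and HisRS were among them, also with the TSS inside the peak. On X both lists were at 2 of 2. On autosomes they were at 5 of 23 (21.7%, 9.66 to 41.9) and 4 of 17 (23.5%, 9.56 to 47.3), beside a background of 13.5%. The TSS lay inside a peak for 24.0% and 31.6% of the lists, against 13.7% of the group and 9.63% of other genes. The X-linked tko encodes a small subunit protein of the mitochondrial ribosome but lies outside the symbol rule, and was named after its values were seen. It is among the 7 genes with a peak counted above, and the peak covers its TSS. With tko and bonsai, a further small subunit gene, the X count became 8 of 12 (66.7%, 39.1 to 86.2) and the autosomal one 10 of 63 (15.9%).

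The cytosolic ribosome gave higher shares on the autosomes. Of 78 autosomal RpL and RpS genes 26 had a TSS peak (33.3%, 23.9 to 44.4), against 16.1% of the mitochondrial ones (9.0 to 27.2), and 22 of 78 had the TSS inside a peak (28.2%), against 5 of 62 (8.06%). RpL11, RpL13A and RpL19 are examples of the former. On X the counts were 10 of 14 (71.4%, 45.4 to 88.3) and 7 of 11. Subunits of oxidative phosphorylation, several of which depend on mitochondrial translation for their partners, stood at 14 of 82 on autosomes (17.1%, 10.5 to 26.6) and 5 of 14 on X (35.7%, 16.3 to 61.2). ATPsynC, ATPsyngamma and COX6B had peaks over their TSS. These differences between lists were not tested.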

How the data were processed

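The values were 3 deposited MSL2 peak lists with chromosome, start and end. According to the submitters' processing notes, MACS2 2.1.1.20160309.0, Bowtie2 2.3.0.1 and bedtools were used with dm6 and BDGP6, and what each did is not stated. Which libraries or control went in, the threshold and any pooling were not given in the sources used. The autosomal list had a deposited score column that held 0 in every row, and the depth is unknown.

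Repeated intervals were counted once, and starts were converted to 1-based positions. Peaks off X, 2L, 2R, 3L, 3R and 4 were left out (16). Of the intervals kept, 0 reached past a chromosome end. Genes and TSS positions came from Ensembl release 115 (BDGP6 annotation 54), and sequences from the RefSeq copy of the same assembly. Every member was kept, with no filter. Shares have 95% Wilson intervals (statsmodels 0.14.6, Python 3.11.15). The scoring was tested on simulated peaks.

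Members and lists were chosen with earlier results of these data known. The splits by divergent TSS and by bacterial numbering were added after the peaks were seen. In the related lists 3 symbols were not found. Named genes were all members with a TSS peak or on X, the 6 next nearest members, the gene nearest to each member's peak, and up to 3 genes with a TSS peak from each related list. Alternatives changed the window, the overlap rule, the TSS, the assignment, the peak width and the gene set.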

Additional observations from a re-analysis of the deposited data

How the results depend on the processing

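Of 29 alternative values for the counts of members with a TSS peak and for their median distance, 23 stayed within 1.5 times the count or within the interval of the median. That rule follows the member counts, not their contrast with other genes, and the values for all, X and autosomes share genes. Among genes with a divergent TSS it called 15 members unchanged, at 25.9% against 25.2% of others. Leaving out the HAS list could not move the counts of 10 on autosomes and 7 on X, since those genes all had peaks of the other lists. Assigning each peak to the nearest protein-coding TSS left 8 members in all and 3 on autosomes. Keeping only peaks of at least 300 bp left 9 members in all (12.3%, others 5.98%), 5 on autosomes (8.06%, others 4.23%) and 4 on X (36.4%, others 15.3%), and moved the median distance from 10813 to 51950 bp (others 58293.5 bp). Windows of 500 bp and 2 kb gave 15 and 20 members. With 1 library for each sex, genotype and target and lists that name none, the variation between samples could not be measured. The lists say nothing of peak height, so a gene without a peak may hold MSL2 below their unknown threshold. No paired analysis was possible because the peak lists carry no replicates.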
